A study of Mus musculus with 18 samples.

Results

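The core genes of the hedgehog pathway were followed across the cochlea of 4-week-old mice: Shh, Boc, Hhip, Ptch1, Smo, Sufu, Gli1, Gli2 and Gli3. They were chosen by gene symbol from the 46583 genes in the table, all 9 were found, and all 9 passed the filter on low counts that left 17901 genes for testing. The study measured RNA in the base, middle and apex of the cochlea, where high-frequency sound is received at the base and low-frequency sound at the apex. Its title asks how follistatin acts on the hedgehog-dependent organization of the apex. Tissue came from untreated Fst cKO mice, which carry a conditional knockout of the follistatin gene, and from untreated control mice, which the genotype label calls WT. The Cre line and the cells in which it acts are not given in the sources used here. Tissue of each region and genotype was pooled before RNA extraction, and 3 technical libraries were made from each pool. The 6 groups are therefore cKO base, cKO middle, cKO apex, control base, control middle and control apex, with n = 1 pool and 3 libraries each. Every p-value on libraries measures the spread between technical libraries, not between animals. The same holds wherever libraries are said not to overlap, and the share of all genes whose libraries do not overlap was not counted.

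Hedgehog ligands are secreted proteins that bind the receptor Ptch1, and co-receptors such as Boc assist the binding. Without ligand, Ptch1 holds back the membrane protein Smo, and Sufu holds the GLI transcription factors in check. Ligand binding releases Smo, and Gli2 then acts mainly as an activator. Gli3 acts mainly as a repressor in the absence of ligand. Gli1, Ptch1 and Hhip are themselves target genes whose RNA is widely used as a readout of the pathway. In the embryonic ear, Shh made outside and within the cochlea patterns the cochlear duct and favours apical identity.

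Library totals ran from 24446760 to 33732726 counts, and the lowest count of a member in any library was 72.1, for Shh. Fst, the targeted gene, stood at 9.84 ± 0.395 CPM (a gene's count scaled to its library's total) in cKO apex and 24.4 ± 0.882 in control apex (SD, n = 3 libraries), and at 2.99 ± 0.348 in cKO middle and 6.37 ± 0.573 in control middle. It was lower in cKO in both regions (log2 change -1.29 ± 0.063 in apex and -1.10 ± 0.099 in middle), while the base pools, at 1.86 ± 0.122 in cKO and 2.17 ± 0.211 in control, did not pass the test (adjusted p = 0.308). Hair cell and supporting cell markers were found in every pool, which fits the tissue label. Summed hair cell markers were unequal, at 488 to 492 CPM in cKO apex and 165 to 167 CPM in cKO base. They came to 543 to 551 CPM in control apex and 169 to 174 CPM in control base. The pools also held other tissues in unequal amounts. Summed cerebellar neuron markers came to 566 to 576 CPM in cKO base and 268 to 291 CPM in control base, where Skor2 and Gabra6 were at 0. Summed oligodendrocyte and astrocyte markers came to 120 to 123 CPM in cKO middle and 303 to 311 CPM in control middle. Airway epithelium markers came to 359 to 365 CPM in cKO apex and 23.4 to 26 CPM in control apex. In such pools, fewer cells of a type and less RNA per cell cannot be told apart.

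No member was called between cKO and control in any region. A gene was called where edgeR's quasi-likelihood test gave a Benjamini-Hochberg adjusted p under 0.05 over all tested genes and the log2 change was at least 1 in size. By that rule 0 of 9 members were called in base, in middle and in apex, beside 3.03%, 2.72% and 2.04% of all genes. By adjusted p alone, with no fold threshold, 7 of 9 members passed in base, 5 in middle and 5 in apex, beside 36.1%, 35.7% and 40.6% of all genes. The members' median log2 change was -0.01 in base, -0.01 in middle and 0.16 in apex, against a median near 0 for all genes tested.

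Along the cochlea the picture was different for 2 of the transcription factors. Gli1 and Gli2 were lower in control apex than in control base, by 1.38 and 1.21 on the log2 scale, and Gli1 was also lower in cKO apex than in cKO base. The receptor Ptch1, the signal transducer Smo and the inhibitor Sufu varied least, by 1.14 to 1.16 times between their highest and lowest pools. The genotypes differed most in the step between base and middle: the middle-base change of Gli1 and of Shh differed between cKO and control by 1.30 and 1.09 on the log2 scale.

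**Figure D1:**
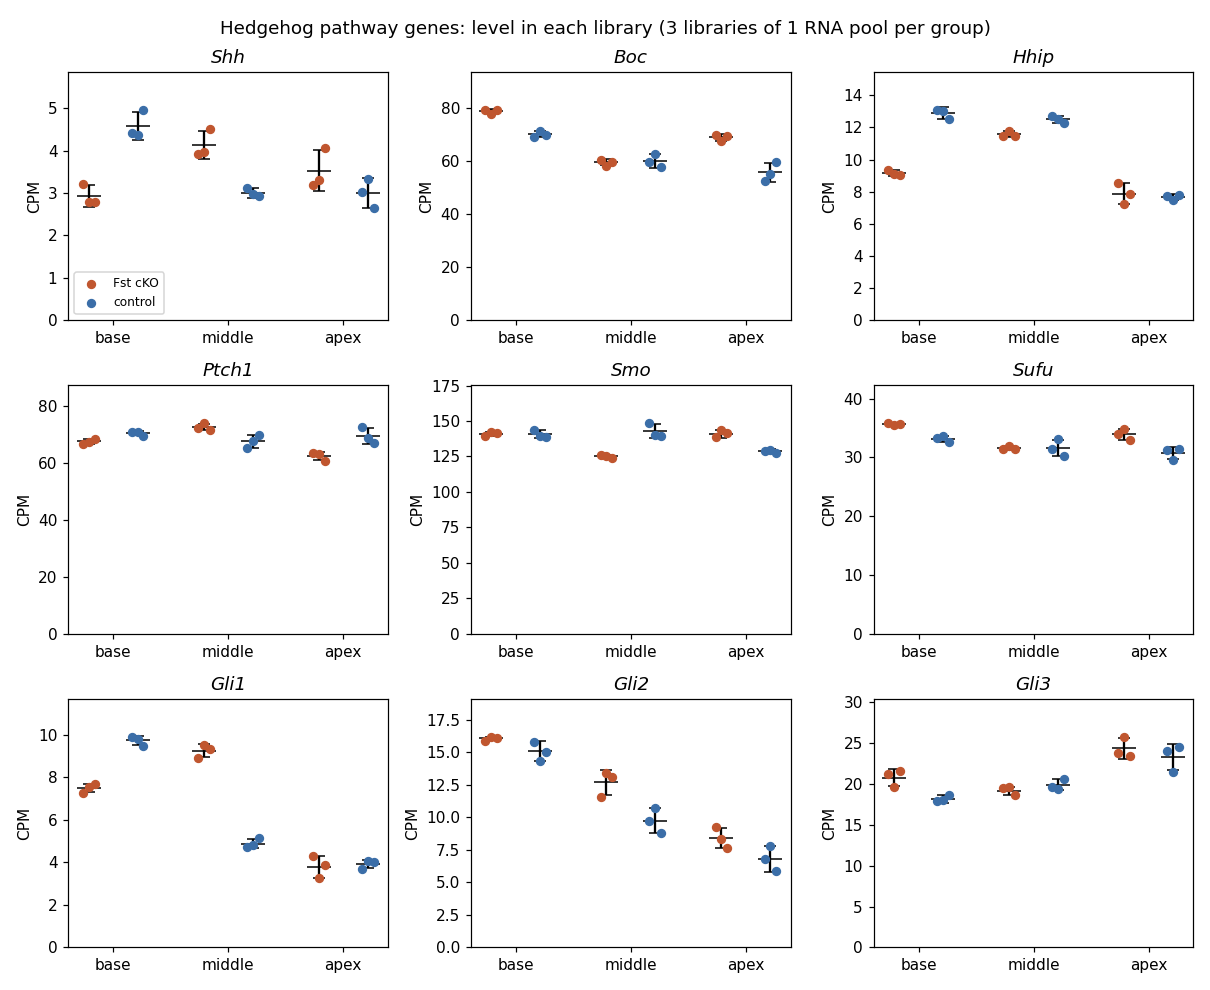
Level of each member in every library, in CPM on linear axes from 0; points are the 3 technical libraries of a pool, black marks their mean and SD, with Fst cKO left of control in each region. Gli1 stands near 9 to 10 CPM in cKO middle and control base and near 4 CPM in both apex pools, while Ptch1, Smo and Sufu stay within a narrow range.

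The ligand. Shh (ENSMUSG00000002633, chromosome 5, 28456815 to 28467256 on GRCm38, minus strand, protein coding) encodes Sonic hedgehog. In base it had 3.22, 2.79 and 2.78 CPM in cKO libraries, against 4.41, 4.36 and 4.96 CPM in control libraries. In middle it had 3.92, 3.97 and 4.51 CPM in cKO libraries, against 3.12, 2.97 and 2.92 CPM in control libraries. The libraries did not overlap in either region, with cKO the lower in base and the higher in middle. By adjusted p alone, 36.1% of all genes passed in base and 35.7% in middle. In apex the values were 3.20, 3.31 and 4.07 CPM in cKO and 3.03, 3.33 and 2.64 CPM in control, and these overlapped. The log2 change between cKO and control was -0.64 ± 0.12 in base (adjusted p = 5.94e-05), 0.45 ± 0.12 in middle (0.00265) and 0.25 ± 0.13 in apex (0.121), each error being the standard error of the fit. None reached the fold threshold. Ordered by mean level, the pools ran from control base through cKO middle, cKO apex, control middle and control apex to cKO base, and no neighbours in that order differed by more than their summed SDs.

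Shh shares exonic sequence with genes on the opposite strand, 446 bases with the antisense gene 9530036O11Rik and 361 bases with Gm26894. Its estimated counts were not whole numbers in 18 of 18 libraries, and strand-specific counting is not stated. Reads of Shh and of these genes therefore cannot be told apart here, and the Shh values are uncertain for that reason.

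Shh was the smaller part of the hedgehog ligand RNA. Levels of different genes were compared only in FPKM, which is scaled to gene length. Dhh, which encodes Desert hedgehog and is made by Schwann cells in peripheral nerve, took 79.7% ± 2.8, 82.8% ± 1.1 and 85.5% ± 1.6 of the summed FPKM of Shh, Ihh and Dhh in cKO base, middle and apex, against 77.4% ± 1.4, 85.8% ± 1.9 and 88.0% ± 0.48 in the control regions (SD, n = 3 libraries). Shh took 12.7% ± 1.1, 12.3% ± 0.9 and 11.5% ± 1.1 in cKO base, middle and apex, and 15.0% ± 1.1, 9.15% ± 0.36 and 8.19% ± 0.84 in control base, middle and apex. Ihh, Indian hedgehog, which acts in growing cartilage and bone, took the rest, 3.01% to 7.63% on average. Dhh was the leading ligand in all 6 pools. Its own level was 15.1 ± 0.544 CPM in cKO base and 19.3 ± 0.655 CPM in control base, a log2 change of -0.37 ± 0.05 that did not reach the fold threshold.

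Receptors and the extracellular antagonist. Boc (ENSMUSG00000022687, chromosome 16, 44485049 to 44558897, minus strand) encodes a co-receptor of the immunoglobulin family that binds hedgehog ligands at the cell surface. In apex it had 69.6, 67.4 and 69.4 CPM in cKO libraries, against 52.4, 55.2 and 59.4 CPM in control libraries, which did not overlap (log2 change 0.33 ± 0.033, adjusted p = 3.27e-10, under the fold threshold). In base it averaged 78.7 ± 0.854 CPM in cKO and 70.0 ± 1.11 CPM in control, and in middle 59.5 ± 1.2 CPM in cKO and 60.0 ± 2.51 CPM in control. Base was thus the highest region in both genotypes, and in the control the apex was the lowest (apex against base -0.40 ± 0.032). In cKO the middle was the lowest region, with a middle-base change of -0.43 ± 0.031.

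Ptch1 (ENSMUSG00000021466, chromosome 13, 63508328 to 63573598, minus strand) encodes the receptor, and its RNA is a pathway target. It averaged 67.6 ± 0.885, 72.7 ± 1.19 and 62.5 ± 1.53 CPM in cKO base, middle and apex, and 70.6 ± 0.77, 67.7 ± 2.27 and 69.6 ± 2.74 CPM in control base, middle and apex. Gli1 and Ptch1, both target genes, differed in range: Gli1 spanned 2.57 times between its highest and lowest pools and Ptch1 1.16 times. Among the 9 contrasts between pools, Ptch1 had no log2 change larger than 0.23 in size, in cKO apex against cKO middle (-0.23 ± 0.028). Smo (ENSMUSG00000001761, chromosome 6, 29735503 to 29761365, plus strand), the transducer that Ptch1 restrains, had 126.1, 125.5 and 124.0 CPM in cKO middle libraries, against 148.4, 140.3 and 139.6 CPM in control middle libraries. In apex Smo averaged 141 ± 2.78 CPM in cKO and 129 ± 1.12 CPM in control. The libraries did not overlap, with cKO the lower in middle and the higher in apex (log2 change -0.20 ± 0.022 in middle and 0.16 ± 0.023 in apex), and both changes were far below the fold threshold.

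Hhip (ENSMUSG00000064325, chromosome 8, 79965851 to 80058006, minus strand) encodes a membrane protein that binds hedgehog ligands and so limits their reach. In base it had 9.36, 9.08 and 9.04 CPM in cKO libraries, against 13.1, 13.0 and 12.5 CPM in control libraries, with no overlap (log2 change -0.50 ± 0.063, adjusted p = 3.1e-08, under the fold threshold). In middle it averaged 11.6 ± 0.184 CPM in cKO and 12.5 ± 0.209 CPM in control, and in apex 7.88 ± 0.648 CPM in cKO and 7.68 ± 0.194 CPM in control. Both apex pools were therefore the lowest, and the control apex-base change of -0.82 ± 0.063 fell short of the fold threshold. In cKO that change was -0.25 ± 0.07, and the difference between the genotypes, 0.56 ± 0.095 (adjusted p = 1.64e-05), was not called either. Hhip overlaps 175 exonic bases of Gm27820 on the opposite strand, and its counts were not whole in 3 of 18 libraries.

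The intracellular inhibitor. Sufu (ENSMUSG00000025231, chromosome 19, 46396896 to 46488804, plus strand) had 35.8, 35.5 and 35.7 CPM in cKO base libraries, against 33.3, 33.6 and 32.6 CPM in control base libraries. In apex it averaged 33.9 ± 0.917 CPM in cKO and 30.8 ± 0.997 CPM in control, and in middle 31.6 ± 0.281 CPM in cKO and 31.6 ± 1.43 CPM in control. Its largest genotype difference was a log2 change of 0.16 ± 0.036 in apex, and no annotated gene overlaps it.

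**Figure D2:**
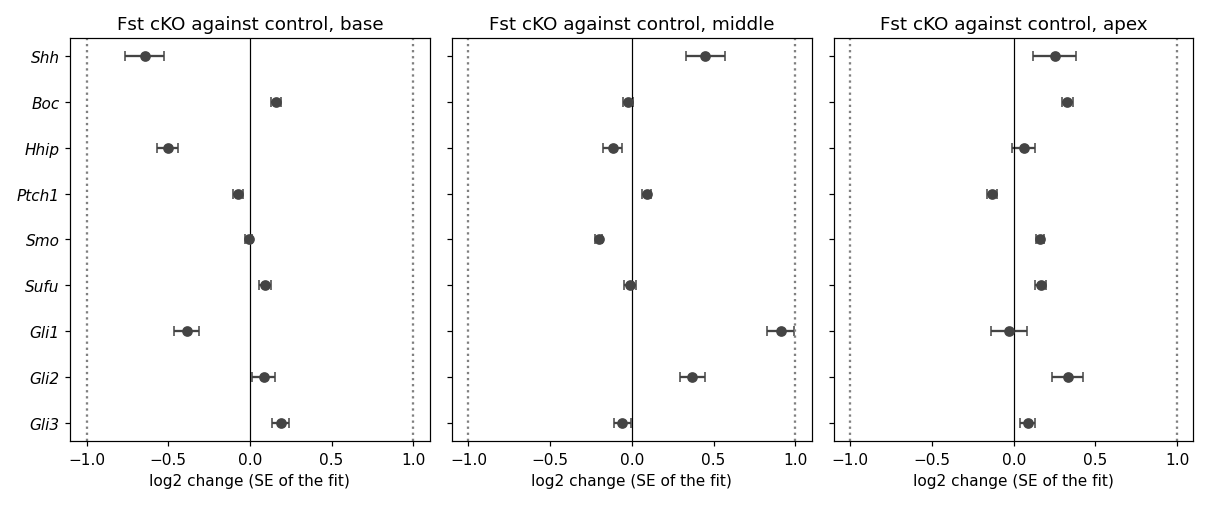
Log2 change of each member between Fst cKO and control in base, middle and apex; points are estimates of edgeR, bars the standard error of the fit, dotted lines the fold threshold. All points lie inside the dotted lines; Gli1 in middle, at 0.91, lies nearest to one.

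The transcription factors. Gli1 (ENSMUSG00000025407, chromosome 10, 127329882 to 127341974, minus strand) encodes an activator whose own transcription depends on the pathway. In middle it had 8.91, 9.52 and 9.34 CPM in cKO libraries, against 4.71, 4.79 and 5.14 CPM in control libraries. In base it had 7.27, 7.55 and 7.66 CPM in cKO libraries, against 9.90, 9.81 and 9.49 CPM in control libraries. The libraries of the genotypes did not overlap in these regions, and cKO was the higher in middle and the lower in base. In apex, where the values were 4.28, 3.26 and 3.85 CPM in cKO and 3.70, 4.07 and 4.00 CPM in control, they overlapped. The log2 change between cKO and control was 0.91 ± 0.081 in middle, a ratio of 1.88 (adjusted p = 1.8e-11), -0.39 ± 0.077 in base (9.67e-05) and -0.03 ± 0.11 in apex (0.879). The change in middle was the largest between genotypes of any member and lay just inside the fold threshold, so it was not called. In counts, the cKO middle libraries held 299, 321 and 315 Gli1 counts and the control middle libraries 136, 139 and 149. Ordered by mean level, Gli1 ran from control base through cKO middle, cKO base, control middle and control apex to cKO apex. The first pair and the last pair of that order did not differ beyond their spread, and the other neighbours did. Gli1 shares 62 exonic bases with Arhgap9 and 265 with Gm47200, both on the opposite strand. As strand-specific counting is not stated, reads in these shared bases cannot be told apart, and the Gli1 values carry that uncertainty. Its counts were not whole in 0 of 18 libraries.

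Gli2 (ENSMUSG00000048402, chromosome 1, 118834132 to 119053619, minus strand) is the main activator when ligand is present. In middle it had 11.6, 13.4 and 13.1 CPM in cKO libraries, against 9.72, 10.7 and 8.80 CPM in control libraries. In apex it had 9.26, 8.33 and 7.66 CPM in cKO libraries, against 6.78, 7.79 and 5.84 CPM in control libraries. The libraries did not overlap in middle and overlapped in apex, with the cKO mean higher in both. The log2 changes, 0.37 ± 0.077 in middle (adjusted p = 2e-04) and 0.33 ± 0.095 in apex (0.00521), were under the fold threshold. In base Gli2 averaged 16.1 ± 0.12 CPM in cKO and 15.1 ± 0.753 CPM in control (adjusted p = 0.391). Its order was cKO base, control base, cKO middle, control middle, cKO apex and control apex, so that both base pools came before both middle pools and both apex pools, and cKO stood above control within each region. Control middle and cKO apex, and cKO apex and control apex, did not differ beyond their spread, and the other neighbours did.

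Gli3 (ENSMUSG00000021318, chromosome 13, 15463235 to 15730026, plus strand), the main repressor in the absence of ligand, had its highest means at the apex. It averaged 24.4 ± 1.27 CPM in cKO apex and 23.3 ± 1.6 CPM in control apex. In base it averaged 20.8 ± 1.02 CPM in cKO and 18.2 ± 0.457 CPM in control, and in middle 19.2 ± 0.494 CPM in cKO and 19.9 ± 0.68 CPM in control. Among neighbours in the order of means, only the lowest pair, cKO middle and control base, differed beyond their spread. Control apex and the next pool, cKO base, did not. Its log2 change between cKO and control was 0.19 ± 0.053 in base and passed neither in middle nor in apex by adjusted p (0.405 and 0.164). Gli3 overlaps 188 exonic bases of Gm6556 on the opposite strand, and its counts were not whole in 10 of 18 libraries.

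In FPKM, the makeup of the GLI family differed between the regions. Gli3 took 59.7% ± 4 of the summed FPKM of Gli1, Gli2 and Gli3 in cKO apex and 59.9% ± 3.4 in control apex. It took 35.8% ± 1.7 in cKO middle and 48.4% ± 1.9 in control middle, and 37.6% ± 1.9 in cKO base and 33% ± 1.1 in control base. The share of Gli3 was thus highest at the apex in both genotypes. Gli1 took 36.6% ± 0.48 in cKO middle against 24.2% ± 0.29 in control middle, 26.7% ± 0.52 in cKO base against 36.0% ± 0.78 in control base, and 18.1% ± 3.2 in cKO apex against 20.7% ± 1.4 in control apex. Among all members Smo had the highest mean FPKM, 34.8 to 40.1 over the 6 pools, followed by Boc at 12.7 to 18.9, Ptch1 at 9.22 to 11 and Sufu at 8 to 9.92. Gli1 at 1.08 to 2.85 and Shh at 1.09 to 1.75 were among the lowest. The depth of the FPKM values is that of the counts behind them.

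**Figure D3:**
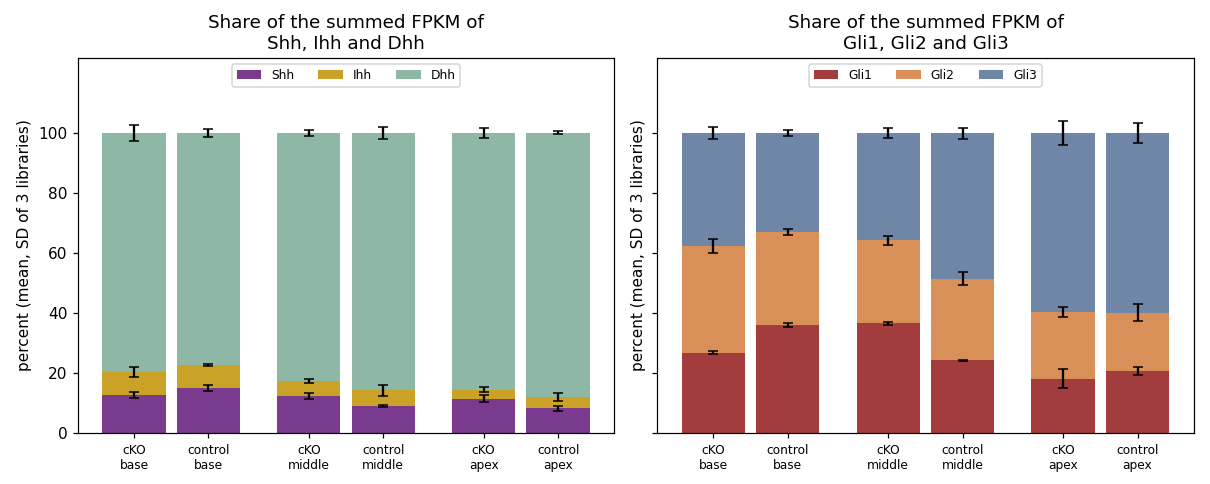
Shares, in percent, of the summed FPKM of the hedgehog ligands (left) and of the GLI factors (right) in each pool, Fst cKO left of control in each region; bars are means of 3 technical libraries and the error bar at the top of each segment is the SD of that segment's share. Dhh fills 77.4% to 88.0% of the ligand bars, and the Gli1 segment is 36.6% in cKO middle and 24.2% in control middle.

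Region within each genotype. In the control, 2 of 9 members were called between apex and base, both lower in apex, beside 5.48% of all genes called and 3.2% called lower. They were Gli1 (log2 change -1.38 ± 0.086, adjusted p = 5.46e-16) and Gli2 (-1.21 ± 0.083, 6.22e-15). Hhip at -0.82 and Shh at -0.67 ± 0.12 lay outside the call, and Gli3 was at 0.29 ± 0.05. Between control middle and control base Gli1 alone was called (1 of 9, -1.02 ± 0.082, adjusted p = 1.52e-12), beside 2.73% of all genes called and 1.2% called lower. It stood at the threshold, and with library totals in place of TMM factors it was -0.998 and not called, nor was it called without control middle replicate 1. Between control apex and control middle 0 of 9 were called, beside 5.3% of all genes. Hhip had the largest change there, -0.75 ± 0.064. By adjusted p alone, 9 of 9 members passed in control apex against base, 6 in apex against middle and 6 in middle against base, beside 52.5%, 45.5% and 31.5% of all genes.

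In cKO, Gli1 was the only member called between apex and base (1 of 9, -1.02 ± 0.095, adjusted p = 2e-11), beside 6.6% of all genes called and 3.81% called lower. Gli2, at -0.97 ± 0.081, lay just outside. These calls changed with single libraries and with the scale: without cKO apex replicate 2 no member was called, without cKO apex replicate 1 both Gli1 and Gli2 were, with library totals alone Gli1 was at -0.98 and not called, and on log2(FPKM + 0.1) Gli1 was at -0.97 and not called while Gli2 was. Between cKO apex and cKO middle Gli1 was called at -1.29 ± 0.087 (1 of 9, adjusted p = 5.88e-15), beside 4.6% of all genes called and 2.93% called lower. Between cKO middle and cKO base 0 of 9 were called, beside 3.26% of all genes, with Gli1 at 0.28 ± 0.076, Boc at -0.43 and Shh at 0.47 ± 0.12. By adjusted p alone, 7, 8 and 9 of 9 members passed in cKO apex against base, apex against middle and middle against base, beside 55.3%, 50.9% and 46.4% of all genes. Thus Gli1 was lower in control middle than in control base, while its mean in cKO middle, 9.25 CPM, was above that in cKO base, 7.49 CPM.

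**Figure D4:**
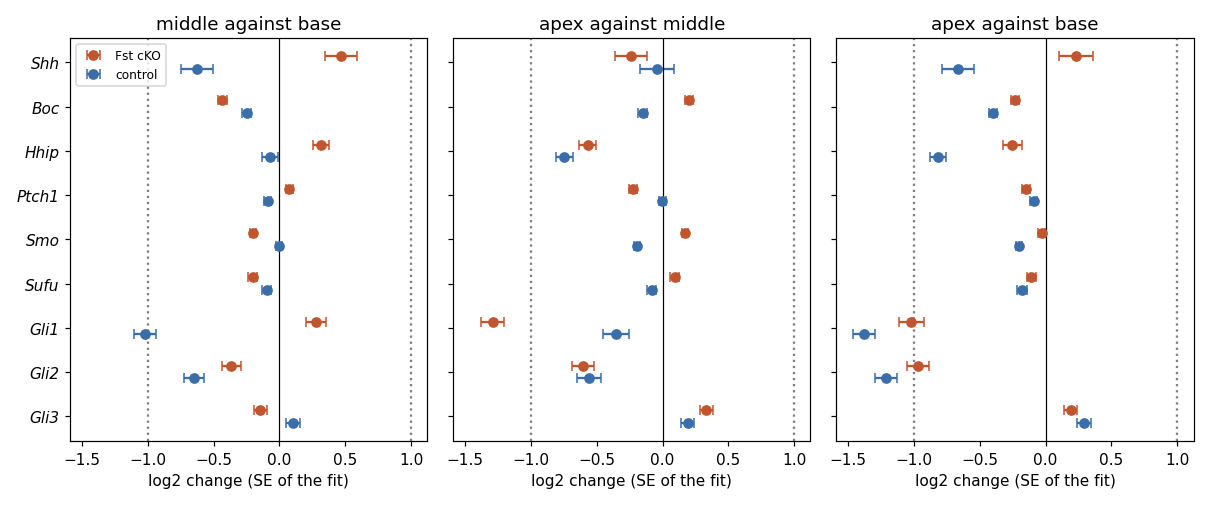
Log2 change of each member between regions, for Fst cKO (upper point of each pair) and control (lower point); bars are the standard error of the fit and dotted lines the fold threshold. Gli1 lies at 0.28 in cKO and -1.02 in control for middle against base, and below 0 in both genotypes in the other panels.

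The difference between genotypes was tested directly as an interaction contrast. For the middle-base change 2 of 9 members were called, both higher, beside 4.7% of all genes called and 2.16% called higher. Gli1 had a difference of 1.30 ± 0.11 (adjusted p = 7.62e-12), with a change of 0.28 in cKO and -1.02 in control. Shh had a difference of 1.09 ± 0.17 (adjusted p = 2.87e-06), with 0.47 in cKO and -0.63 in control. Every library of cKO middle lay above every library of control middle, and every library of cKO base below every library of control base, for both genes. These are technical libraries, and the share of all genes that separate in this way was not counted. For the apex-base change 0 of 9 were called, beside 2.41% of all genes, with Shh at 0.89 ± 0.18 just outside and Hhip at 0.56. For the apex-middle change 0 of 9 were called, beside 3.6%, with Gli1 at -0.94 ± 0.13, which was called when cKO apex replicate 1 was left out and not when any other library was. By adjusted p alone 8 of 9 members passed for the middle-base, 5 for the apex-base and 5 for the apex-middle change, beside 33.4%, 24.8% and 38% of all genes. These contrasts share pools, so they are not independent of each other.

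When the libraries of each pool were summed and genotype was tested over the 3 regions, with region as a factor, 0 of 9 members and 0 of all genes were called by edgeR. With 2 residual degrees of freedom, 2087 of the 19038 genes tested in this fit had an unadjusted p under 0.05. The regions of a genotype may share animals, so they may not be independent observations of genotype. Gli2 was at 0.26 ± 0.086 (unadjusted p = 0.0309, adjusted p = 0.417), with cKO above control in 3 of 3 regions. Gli1, which had opposite signs in middle and base, was at 0.16 ± 0.27 (adjusted p = 0.853), and Shh at 0.02 ± 0.24.

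The promoters of the members were read for GLI binding motifs, since Gli1 and Gli2 differed between regions. The 250 bases before the RefSeq transcription start (GRCm38.p6) were at hand for Ptch1, Smo, Gli2, Gli3, Hhip and Sufu. By the gene positions given above, the windows of Ptch1 (chr13:63565736-63565985) and Gli3 (chr13:15463473-15463722) lie inside the gene. The bases before the outermost annotated start of Ptch1 and of Gli3 were therefore not read. On either strand, the consensus GLI motif GACCACCCA, which 0.225% of 32851 promoters of that length hold, and its core CCACCCA, which 8.11% hold, had 0 matches in these 6. The second motif lies within the first. The GC box GGGCGG, held by 32.7% of promoters, was found in 5 of the 6 windows, with 1 match each in Gli2, Ptch1 and Sufu, 2 each in Hhip and Gli3, and 0 in Smo. The Gli2 and Hhip windows are shown because Gli2 was called between regions and Hhip came near it. They are written 5′ to 3′ along the gene, with GC boxes on either strand in capitals, for Gli2 at chr1:119053620-119053869 and Hhip at chr8:80058009-80058258, both on the minus strand.
Gli2: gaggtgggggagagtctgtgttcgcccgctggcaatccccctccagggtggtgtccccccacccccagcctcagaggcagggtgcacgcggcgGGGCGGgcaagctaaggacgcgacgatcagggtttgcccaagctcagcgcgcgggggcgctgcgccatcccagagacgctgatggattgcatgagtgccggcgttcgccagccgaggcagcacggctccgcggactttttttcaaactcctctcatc
Hhip: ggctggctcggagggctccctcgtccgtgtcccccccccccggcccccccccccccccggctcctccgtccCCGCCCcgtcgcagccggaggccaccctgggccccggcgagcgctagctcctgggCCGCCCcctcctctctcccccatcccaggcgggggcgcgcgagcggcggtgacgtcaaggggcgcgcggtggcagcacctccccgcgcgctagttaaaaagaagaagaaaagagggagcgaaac
The Gli2 window is 67.2% G and C and the Hhip window 76%, against a median of 52.4% over all promoters. No match says only that these letters are not in these windows.

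Other genes of the pathway gave context from 53 listed genes, of which 52 were tested and Foxa2 was too low. Between cKO and control, 0 were called in base and 0 in apex, beside 3.03% and 2.04% of all genes. In middle 3 were higher and 1 lower, beside 2.15% of all genes higher and 0.575% lower, and the list's median log2 change was 0.02. Scube1, which encodes a secreted protein of the family that helps release hedgehog ligand, averaged 41.4 ± 1.51 CPM in cKO middle and 19.8 ± 1.14 CPM in control middle (log2 change 1.05 ± 0.041, adjusted p = 2.37e-21). Gpc3, a cell-surface glypican that binds hedgehog ligand and in the mouse limits it, averaged 20 ± 0.195 CPM in cKO middle and 9.88 ± 0.856 CPM in control middle (1 ± 0.067, adjusted p = 1.15e-14). Foxl1, a forkhead gene downstream of hedgehog signals in gut mesenchyme, was higher but low in level, at 0.822 ± 0.193 CPM in cKO middle and 0.395 ± 0.169 CPM in control middle (1.05 ± 0.35, adjusted p = 0.0186). Nkx2-2, a hedgehog target in the neural tube that is also a gene of oligodendrocytes, was lower, with 2, 1 and 4 counts in cKO middle libraries against 11, 10.8 and 12 counts in control middle libraries. Oligodendrocyte and astrocyte markers were lower in the same comparison (9 of 11 tested), and their part in the Nkx2-2 result was not tested.

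Between control apex and control base 1 of these genes was higher and 4 were lower, beside 2.28% of all genes higher and 3.2% lower. Scube3 averaged 17.8 ± 0.445 CPM in control apex and 6.41 ± 0.803 CPM in control base (log2 change 1.41 ± 0.075). The 4 lower genes stand on a list of hedgehog targets known from other tissues, of which 13 were tested. They were Foxd1 (-1.81 ± 0.14), Foxl1 (-1.39 ± 0.37), Pthlh (-1.30 ± 0.25), which encodes a signal that works with Ihh in the growth plate, and Foxc2 (-1.17 ± 0.066). The median change of that target list was -0.51, against a median near 0 for all genes. Between cKO apex and cKO base 1 was higher and 2 were lower, beside 2.79% of all genes higher and 3.81% lower. Scube3 was again the higher (1.03 ± 0.082), Ihh was lower (-1.01 ± 0.28), and Nkx2-2 was lower, with 0, 0 and 1 counts in cKO apex libraries and 7.84, 5 and 4 counts in cKO base libraries. In the middle-base interaction 6 were higher and 1 lower, beside 2.16% of all genes higher and 2.54% lower: Foxl1 (1.65 ± 0.49), Gpc3 (1.53 ± 0.1), Foxd1 (1.44 ± 0.17), Osr1 (1.34 ± 0.15), Scube1 (1.29 ± 0.073) and Pthlh (1.25 ± 0.36) were higher, and Nkx2-2 was lower. Of 19 genes that relay the signal inside the cell, such as Kif7 and Gpr161, and of 8 genes of ciliary transport, on which mammalian hedgehog signalling depends, 0 were called in any contrast, beside 2.04% to 6.6% of all genes. By adjusted p alone genes of both lists passed. In cKO apex against cKO base 11 of the 19 relay genes were higher and 4 lower by that rule, beside 55.3% of all genes.

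Markers of bone, cartilage and meninges differed in some of the same contrasts as Gli1 and Gli2, and in others where Gli1 did not. Of 16 osteoblast and bone matrix markers, 7 were higher in cKO middle than in control middle, 13 were lower in control apex than in control base, and 9 were higher in the middle-base interaction, beside 2.15%, 3.2% and 2.16% of all genes in those directions. Between cKO apex and control apex, where Gli1 was at -0.03 and Gli2 at 0.33, 3 of the 16 were called, all higher, with a list median of 0.71, beside 2.04% of all genes called. Col1a1, the main collagen of bone, averaged 232 ± 4.54 CPM in cKO middle and 84.7 ± 1.1 CPM in control middle, and 43.8 ± 2.19 CPM in control apex and 515 ± 5.63 CPM in control base. The summed level of the bone list, most of it in a few abundant genes, came to 7900 to 7940 CPM in cKO middle and 7230 to 7300 CPM in control middle. Of 8 cartilage markers tested, 7 were lower in control apex than in control base, with sums of 441 to 449 CPM in control apex, where Matn3 and Col10a1 were at 0, and 1440 to 1490 CPM in control base. Between cKO middle and control middle 1 of the 8 was called, Prg4, which was higher. In cKO middle they summed to 947 to 956 CPM and in control middle to 761 to 771 CPM, where Matn3 was at 0. Of 9 markers of meninges, 6 were lower in control apex than in control base and 1, Slc47a1, was higher in cKO middle than in control middle. There were 4 lower in cKO base than in control base and 4 lower in cKO apex than in control apex, where 92 and 99 of 17901 genes were lower. Their sums were 18100 to 18200 CPM in control apex and 25900 to 26000 CPM in control base. They were 23800 to 23900 CPM in cKO middle and 24800 CPM in control middle. The sum was thus lower in cKO middle, while the list's median log2 change there was 0.54. By adjusted p alone 7 of the 9 were higher in cKO middle and 1 lower, beside 35.7% of all genes. Of 10 hair cell markers, 9 were higher in control apex than in control base, beside 2.28% of all genes. In cKO apex against cKO base 8 of the 10 were higher, beside 2.79%. Between cKO middle and control middle 1 of the 10, Gfi1, was called, and it was higher. By adjusted p alone 8 were higher there and 0 lower, beside 35.7% of all genes. The part of these tissues and cells in the Gli1 and Gli2 results was not tested.

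**Figure D5:**
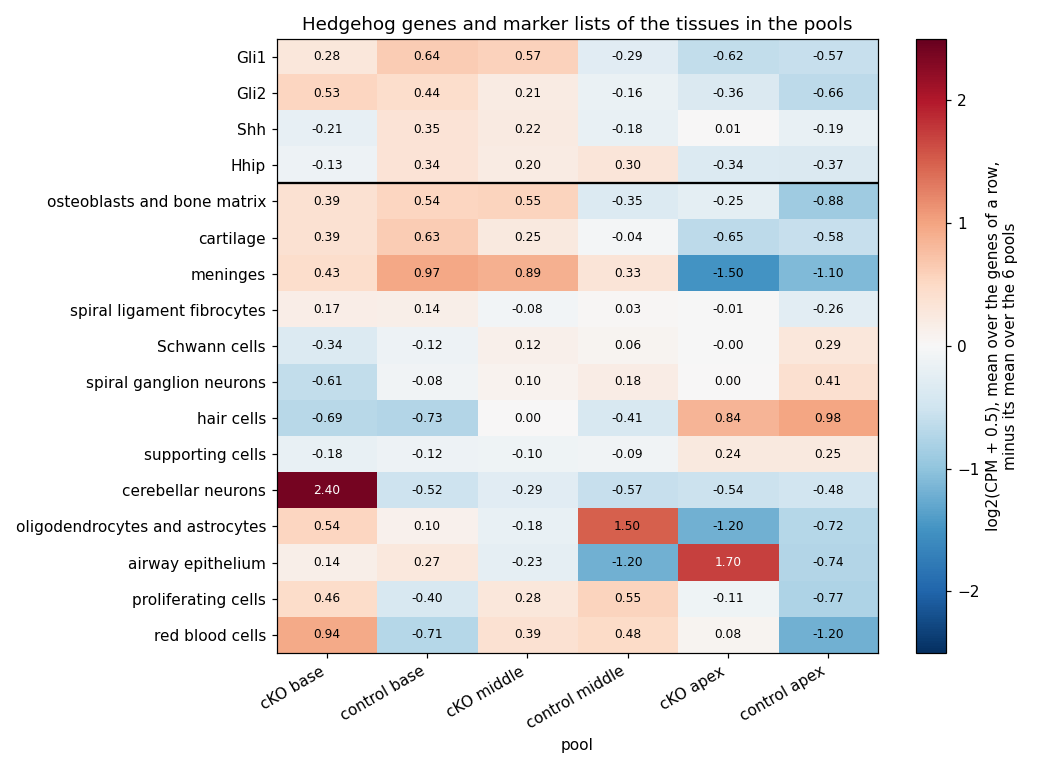
Centred level of Gli1, Gli2, Shh, Hhip and of marker lists in the 6 pools, as log2(CPM + 0.5) averaged over the genes of a row minus the row's mean over the pools, Fst cKO left of control in each region. Gli1 stands at 0.57 in cKO middle and -0.29 in control middle, and the bone list at 0.55 in cKO middle and -0.35 in control middle, while cerebellar neuron markers stand at 2.4 in cKO base.

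Cerebellar neuron markers were higher in cKO base for 11 of 12 genes, beside 2.51% of all genes, and the cKO base pool enters the interaction for the middle-base change. In the cerebellum Purkinje cells make Shh and Bergmann glia express Gli1. Both genes were below their control base levels in every cKO base library, and the part of cerebellar cells in these levels was not tested. Red blood cell markers were also higher in cKO base (9 of 9 tested), with sums of 1610 to 1630 CPM in cKO base and 551 to 552 CPM in control base, and in cKO apex (9 of 9), with sums of 939 to 956 CPM in cKO apex and 387 to 395 CPM in control apex. Markers of proliferating cells were higher for 5 of 10 genes in cKO base and 3 of 10 in cKO apex, with sums of 99.4 to 102 CPM in cKO base and 46.7 to 48.6 CPM in control base. Of all 17901 genes tested, 450 were called higher in cKO base and 266 in cKO apex. In the middle-base interaction 9 of 9 red blood cell markers, 9 of 10 proliferation markers and 9 of 12 cerebellar markers were lower, beside 2.54% of all genes. The part of these cells in the interaction was not tested. Contrasts without cKO base were fitted again without those 3 libraries, and the calls of members were the same in number. Gli1 was at 0.91 in middle and at -1.38 in control apex against base. These contrasts use the cKO base libraries only through the shared spread, filter and scaling, so little change could follow. The interaction for the middle-base change needs those libraries and could not be fitted this way.

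The genes whose pattern over the 6 pools was most like that of the called members were sought among 1326 genes that averaged 1 CPM or more and varied by 1 or more on the log2 scale. For Gli1 they were Tspan11 (Pearson r = 0.995), Igf2 (0.985) and Slc16a12 (0.982). Igf2, an imprinted growth factor gene, averaged 195 CPM in cKO middle and 111 CPM in control middle. For Gli2 they were Omd (0.998), which encodes osteomodulin of bone matrix, Smpd3 (0.995), a sphingomyelin phosphodiesterase needed in bone mineralization, and Tnmd (0.994), which encodes tenomodulin of tendon. Omd averaged 14 CPM in control apex and 35.6 CPM in control base. With 6 pools, 71 genes passed an r of 0.9 with Gli1 and 145 with Gli2.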

How the data were processed

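RNA of the cochlea was sequenced after a TruSeq RNA v2 preparation with Ribo-Zero, per the labels' protocols, from 6 RNA pools with 3 technical libraries each. The submitters' processing notes name STAR 2.5.2b, Cuffdiff 2.2.1 and the build GRCm38 (mm10), without the role of each. The counting step is not given in the sources used here. The authors deposited estimated counts (expected counts) per gene and library, not scaled, of which 89.2% to 89.9% were whole within 1e-06, and FPKM values. Genes were kept apart by Ensembl identifier, as 92 symbols stood on more than 1 row.

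Counts were rounded and fitted with edgeR 4.0.16 (R 4.3.3) in 1 design of 6 groups: filterByExpr, TMM factors (0.977 to 1.03), quasi-likelihood F tests with 12 residual degrees of freedom, and Benjamini-Hochberg adjustment over 17901 genes. Technical libraries vary little (common biological coefficient of variation 0.00988), so the call also needed a log2 change of at least 1. CPM uses raw library totals. A floor of 3 counts is 0.0889 to 0.123 CPM and covers counting error only, as reads carry no molecular identifiers. Alternatives used DESeq2 1.42.0, limma 3.58.1 on log2(FPKM + 1) and log2(FPKM + 0.1), other filters, thresholds, a replicate block and each library left out. The design had assumed whole counts. The count test was kept for the estimated counts.

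Positions and overlaps came from GENCODE release M21 on GRCm38, and promoters from RefSeq on GRCm38.p6, matched by symbol for 6 of 9 members. The members and the lists were chosen with earlier results of these data known. All members were named; of other pathway lists, the genes called in a described contrast; and for each member called between groups the 3 genes of highest Pearson r over the 6 pools. The count model was tested on simulated data. Libraries with the same number did not deviate together (r from -0.06 to 0.063 over 45 pairs), so numbers were not used as pairs.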

Additional observations from a re-analysis of the deposited data

Results flagged for a closer look

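The middle-base change of Gli1 differed between genotypes by 1.30 ± 0.11 on the log2 scale (edgeR interaction contrast, adjusted p = 7.62e-12). It was 0.28 in cKO and -1.02 in control. That of Shh differed by 1.09 ± 0.17 (adjusted p = 2.87e-06), being 0.47 in cKO and -0.63 in control. The Shh values are uncertain, as its reads cannot be told apart from those of genes on the opposite strand. Its counts were not whole in 18 of 18 libraries. Reads in the exonic bases that Gli1 shares with genes on the opposite strand cannot be told apart either. The Gli1 counts were not whole in 0 of 18 libraries. Both genes stand out because the same pair of regions gave different changes in the 2 genotypes. The test of that difference was over 3 technical libraries per pool. In the same contrast 9 of 16 bone markers and 5 of 9 meningeal markers were higher, beside 2.16% of all genes. In the other direction 9 of 12 cerebellar neuron markers, 10 of 11 oligodendrocyte and astrocyte markers, 9 of 9 red blood cell markers and 9 of 10 proliferation markers were lower, beside 2.54% of all genes. Their part in the results was not tested. Over the alternatives the difference was 0.87 to 1.34 for Gli1 and 0.63 to 1.16 for Shh. The lowest value of each was on log2(FPKM + 1), where neither gene was called.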

How the results depend on the processing

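By adjusted p alone, members called were 7, 5 and 5 for cKO against control in base, middle and apex; 9, 6 and 6 in the control for apex-base, apex-middle and middle-base; 7, 8 and 9 in cKO for the same; and 5, 5 and 8 for the interactions. With a log2 threshold of 0.5 they were 2 in base and 1 in middle, beside 8.12% and 6.56% of all genes. In the control they were 4, 2 and 3, beside 14%, 12.4% and 6.52%. In cKO they were 2 and 3 for apex-base and apex-middle, beside 16.9% and 11.9%. For the apex-base and apex-middle interactions they were 2 and 1, beside 5.2% and 8.5%. With library totals alone, 0 were called for control middle-base and cKO apex-base. On log2(FPKM + 1), which understates changes of low genes, 0 were called for control apex-base, control middle-base, cKO apex-base, cKO apex-middle and the middle-base interaction, and on log2(FPKM + 0.1) 0 for control middle-base. For cKO apex-base, log2(FPKM + 0.1) kept the count at 1, but the member called was Gli2, and Gli1, at -0.97, was not. Leaving out each library gave 0 to 1 for control middle-base, 0 to 2 for cKO apex-base and 0 to 1 for the apex-middle interaction. In all, 200 of the counts of members called under an alternative were within 1.5 times of the value reported, and 33 were not.

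Signs turned for values near 0 that were not called. With library totals alone Smo was at 0.00208 in base, 0.0215 in control middle-base and 0.00608 in cKO apex-base, Sufu at 0.00174 in middle, and Shh at 0.00204 and Ptch1 at 0.0404 in control apex-middle. Smo in base was at 5.42e-05 with DESeq2, 0.00126 and 0.00129 on log2(FPKM + 1) and log2(FPKM + 0.1), and 0.00604 with its own libraries alone. On the same FPKM scales Ptch1 in control apex-middle was at 0.000392 and 0.000429, Hhip in control middle-base at 0.0286 and 0.0345, Sufu in the apex-base interaction at -0.00487 and -0.00387, and Gli2 in the apex-middle interaction at 0.0301 on the second. With libraries left out, values ran from -0.0165 to 0.0114 for Smo in base, -0.033 to 0.0141 for Smo in control middle-base, -0.0417 to 0.0236 for Sufu and -0.0529 to 0.00733 for Boc in middle, -0.0378 to 0.0209 for Ptch1 and -0.127 to 0.04 for Shh in control apex-middle, -0.133 to 0.0754 for Gli2 in the apex-middle interaction, and -0.121 to 0.0716 for Gli1 and -0.00136 to 0.117 for Hhip in apex.

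Over the 12 comparisons 365 to 1182 genes were called. These were 930 to 3032 at a log2 threshold of 0.5, 4439 to 9895 with none, 139 to 647 with a mean of at least 1 CPM, and 52 to 314 on log2(FPKM + 1). The numbers of libraries do not pair them. With the number as a replicate block, 0 members were called in base, middle and apex and 2 in control apex-base, as without it, and no other count of members called changed. The fit on summed pools called 0 members under every alternative, though 18 genes passed without the base pools and 1 without the middle pools. The fit without the cKO base libraries was chosen after seeing the data. The cause of these changes was not tested. With 1 pool per group, depth is not the main limit: the spread between animals was not measured.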
